A study of Homo sapiens with 30 samples.

Results

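Long interior exon bins are the stretches of annotated exon, 1000 bases or longer, that lie inside a gene with at least 3 bins and are neither its lowest-coordinate nor its highest-coordinate bin. An exon bin is the smallest piece of an annotation in which every exon boundary of every transcript of a gene begins a new piece. The rule used position and length only, and took 15863 of 652720 bins, from 10024 of 59360 genes, of which 6597 held a single such bin. Counts per bin were read in 18 poly(A) RNA-seq libraries, 3 separate cultures in each of 6 groups. Wild-type K562, a chronic myeloid leukaemia line, and wild-type HCT116, a colorectal carcinoma line, received a DNMT1 inhibitor (DNMT1i, 10 µM) or 0.1% DMSO for 3 days. The paper names the inhibitor GSK3484862 in its results and GSK3482364 in its methods. A K562 line with degron tags on both SON and SRRM2, the proteins that scaffold nuclear speckles, received dTAG-13 (500 nM), which sends tagged proteins to degradation, or DMSO for 6 hr. Its controls carry the tags too, it was grown from single cells, and its edited SRRM2 lacks the last residues of the protein. Inhibitor and degrader act on proteins, so the RNA of DNMT1, SON and SRRM2 does not check the labels. Counts over bins ranged from 31947596 to 43773260 per library. A read that touched several bins was counted in each of them.

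Most internal exons of human genes are short, because the splicing machinery recognises an exon as a unit across its own length. A long stretch between the ends of a gene is therefore usually one of a few things. It can be an unusually long coding exon, as in BRCA1 or MKI67, or a piece of a last exon that alternative polyadenylation sites cut into bins. It can also be an intron that some transcripts keep. Introns kept in polyadenylated RNA are often held in the nucleus, and nuclear speckles store splicing factors beside the active genes whose RNA is being spliced. DNMT1 copies methyl groups onto new DNA strands, and its loss can open promoters inside genes, which changes the pieces of the gene that reach RNA.

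The sequences of a few bins that the results below turn on are given from hg38. PPP1R37 bins 24 (chr19:45143634-45144853, plus strand) and 22 (chr19:45142459-45143520, plus strand) are the whole of introns 8 and 7 of the canonical transcript, and POLG bin 74 (chr15:89327350-89328455, minus strand) is the whole of intron 6. They are shown because these introns gained counts after dTAG-13. Capitals mark the first and the last bases of the intron, the GT and AG at which splicing cuts, within chr19:45143624-45143653 and chr19:45144824-45144863 for bin 24, chr19:45142449-45142478 and chr19:45143491-45143530 for bin 22, and chr15:89328436-89328465 and chr15:89327340-89327379 for POLG.
PPP1R37 bin 24, start of the intron: catgacactgGTgagtcaggctggcaggga
PPP1R37 bin 24, end of the intron: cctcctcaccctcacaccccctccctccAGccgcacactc
PPP1R37 bin 22, start of the intron: ctagactcggGTgggtgcagtggcccaccc
PPP1R37 bin 22, end of the intron: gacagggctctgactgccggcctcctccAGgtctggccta
POLG bin 74, start of the intron: tcttggagagGTgagggggagcccatgtgg
POLG bin 74, end of the intron: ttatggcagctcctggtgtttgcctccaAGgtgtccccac
All of these ends are of the common GT-AG kind. Of the 831 members that span a whole canonical intron, 818 begin with GT and end with AG and 10 begin with GC and end with AG.

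RUSC1 bin 3 (chr1:155321688-155323011, plus strand) is 1324 bases long, of which 1238 are coding, and lies in exon 2 of 10. It is shown because it had no counts in HCT116 cells under DMSO and was counted in every DNMT1i library. Capitals mark CG pairs, the sites that DNMT1 keeps methylated, in the last 150 bases of the bin (chr1:155322862-155323011). The whole bin holds 58 such pairs and this window holds 11. DNA methylation itself was not analysed here.
RUSC1 bin 3, last 150 bases: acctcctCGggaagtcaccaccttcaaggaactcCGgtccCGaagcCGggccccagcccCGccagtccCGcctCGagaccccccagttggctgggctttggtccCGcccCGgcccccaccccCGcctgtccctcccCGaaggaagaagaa

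The long bins were of 4 kinds by annotation, and the label of interior exons fits only part of them. Coding bins, in which at least 50% of the bases are translated, numbered 1843. Bins labelled untranslated are those of protein-coding transcripts with under 50% coding bases, so some are partly coding. They numbered 6332. Of these, 3192 lay wholly in the 3′ untranslated region of the canonical transcript, and 1662 lay in its exons and reached into its coding span. Bins listed only in transcripts annotated as retained introns numbered 3320, of which 603 were a whole canonical intron and 2636 lay within one. The other 4368, called noncoding and processed below, were the remainder, with 3288 in genes that have no coding sequence in the annotation. This class also takes processed and decay-prone transcripts, and bins with none of their listed transcripts in the annotation. Coding bins were the richest in bases G and C, with a median of 49.7%, against 41.0% for untranslated and 42.6% for retained intron bins. They also had the most CG pairs, 1.75 per 100 bases against 0.904 and 0.991. Median length differed little, from 1503.5 bases in the last class to 1685 in untranslated bins. Of all members, 1667 (10.5%) overlapped a bin of another gene on the other strand and none overlapped one on the same strand, and without a known strand setting counts of the former are uncertain.

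By counts, the untranslated class, with its partly coding bins, made up most of the set. Its bins held 72.6% of the counts in long interior bins over the 18 libraries, coding bins 23.9%, noncoding and processed bins 2.43% and retained introns 1.12%. By place in the canonical transcript, members wholly in the 3′ untranslated region held 41.5% of these counts. Members in exons that reached into the coding span held 52.0%. The single bin with the most counts was a coding bin of the tubulin gene TUBB, which held 1.56% of the counts in long interior bins, followed by a coding bin of the scaffold protein AKAP12 with 1.22%. The 576 highest bins held 50% of the counts. Within their genes, coding bins held the largest share. In K562 cells under DMSO the median share of a gene's bin counts was 23.7% for coding bins, 11.6% for untranslated bins, 0.501% for the other noncoding bins and 0.171% for retained introns, over members of genes with at least 100 counts in each library. In HCT116 cells under DMSO these medians were 22.1%, 11.8%, 0.243% and 0.0940%. Members just inside the length limit, 1000 to 1099 bases, had a median share of 1.03% in K562 DMSO cells, and bins just outside it, 900 to 999 bases, of 1.20%.

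Summed over a library, long interior bins took from 4.77% to 6.75% of bin counts, and HCT116 cells given DNMT1i stood highest. Here and below the share is of the counts over genes with 3 or more bins. The share was 5.82%, 5.85% and 5.66% in the 3 HCT116 DMSO libraries and 6.66%, 5.94% and 6.75% in the DNMT1i libraries. All DNMT1i libraries were above all DMSO libraries, with replicate 2 close to the controls. The difference of 0.671 percentage points had p = 0.1 by a two-sided exact permutation test, the smallest that 3 against 3 libraries allow. Most of it lay in untranslated bins, at 4.06% ± 0.0828 under DMSO and 4.73% ± 0.439 under DNMT1i (SD, n = 3; exact p = 0.1), while coding bins stood at 1.60% ± 0.0211 and 1.58% ± 0.0312 (exact p = 0.5). The 3′-most bins of genes, which are no members, moved with them, from 4.33%, 4.25% and 4.09% to 5.22%, 4.42% and 5.15%, and the part of this shift toward gene ends in the members' shares was not tested.

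**Figure D1:**
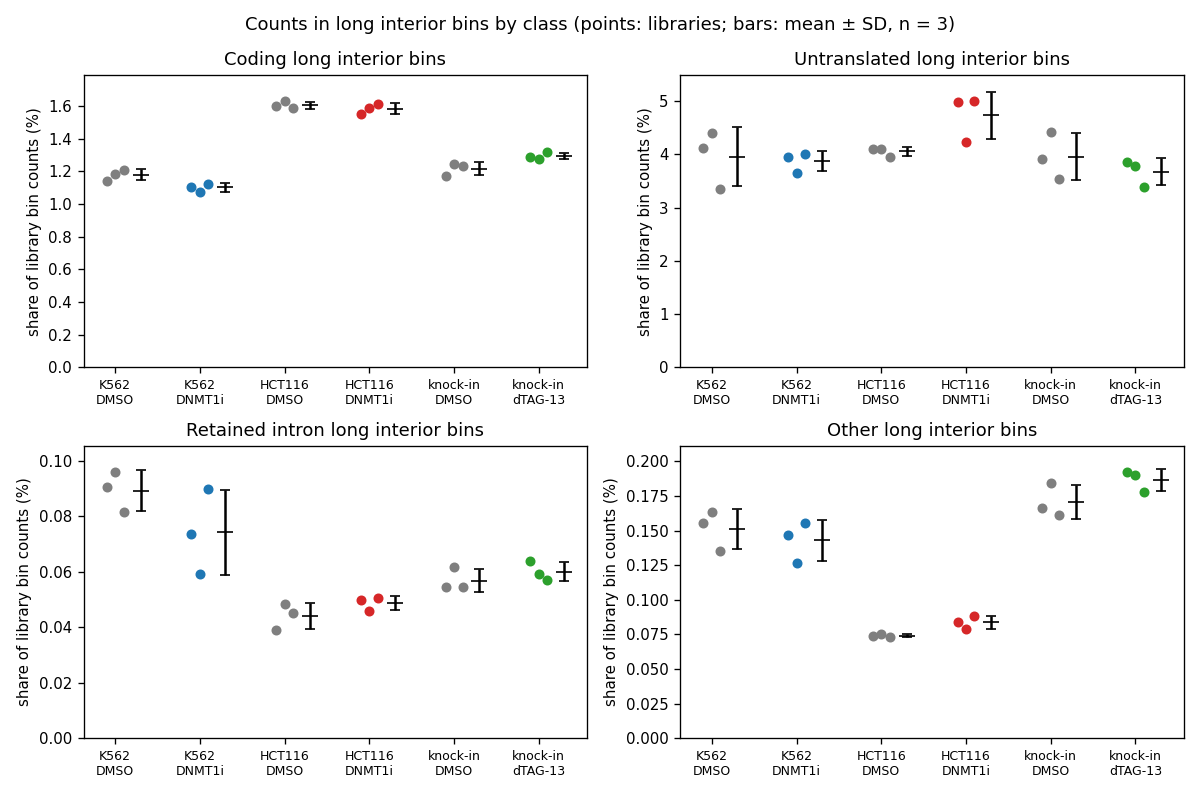
Share of each library's bin counts (%, y axis) in coding, untranslated, retained intron and other long interior bins, by group (x axis), with 1 point per library and the mean ± SD (n = 3) beside it. Retained introns took 0.0892% of counts in K562 DMSO cells and 0.0441% in HCT116 DMSO cells, and untranslated bins took 4.98%, 4.23% and 5.00% in HCT116 DNMT1i cells, above the DMSO libraries of that line.

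In K562 cells the share of all long bins was 5.52%, 5.85% and 4.77% under DMSO and 5.28%, 4.91% and 5.37% under DNMT1i (exact p = 0.6). DMSO replicate 3 gave the lowest value of all, and without it both other controls were above every treated library, with a difference of −0.493 in place of −0.189 percentage points. Coding bins took 1.14%, 1.18% and 1.21% of counts under DMSO and 1.11%, 1.07% and 1.12% under DNMT1i, with no overlap (exact p = 0.1). In the knock-in cells it was 5.40% ± 0.470 under DMSO and 5.21% ± 0.243 under dTAG-13 (exact p = 0.7). Coding bins took 1.17%, 1.25% and 1.23% of counts in the knock-in DMSO libraries and 1.29%, 1.28% and 1.32% after dTAG-13, with no overlap (exact p = 0.1). Between the lines, coding bins took 1.18% ± 0.0329 in K562 DMSO and 1.60% ± 0.0211 in HCT116 DMSO cells (exact p = 0.1). A share of the library also depends on the levels of the host genes. In the test of usage within genes given below, coding bins had a median log2 ratio of −0.008 between the lines, with 29 higher and 27 lower of 1084. Replicate 3 of the K562 DMSO group stood apart in other ways too, with 3.34% in untranslated long bins against 4.13% and 4.41%, and 3.64% in 3′-most bins against 4.41% and 4.69%. The counts of called bins, the medians of untranslated and retained intron bins in K562 cells and the K562 bins named are given with and without it.

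Usage of a bin was tested as the ratio of its counts to those of the rest of its gene, so a change in the whole gene's level cancels. A positive log2 ratio means that the bin took more of its gene's counts. Adjusted p-values are from edgeR's quasi-likelihood test with Benjamini-Hochberg adjustment over every bin tested, and a bin is called at adjusted p below 0.05. Between 5461 and 6061 members had enough counts to be tested in a comparison of 6 libraries, so the counts below are not of the whole set.

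To ask whether loss of maintenance methylation changes the use of long interior bins in colorectal cells, HCT116 DNMT1i libraries were compared with DMSO. Of 5931 long bins tested, 117 rose and 116 fell, while of all 202811 bins tested 0.468% were called higher and 0.303% lower. The share called was 1.97% and 1.96% of the long bins tested. These and later call rates were not matched for counts per bin, and how far they follow from depth was not tested. The median log2 ratio was 0.05 for long bins and −0.02 for all bins. Untranslated bins gave 83 that rose and 91 that fell of 4004, noncoding and processed bins 17 and 12 of 448, coding bins 13 and 11 of 1152, and retained introns 4 and 2 of 327. Among bins that lie 3′ of every coding base of their gene, 33 rose and 61 fell of 1997, although their median log2 ratio was 0.07, 60.4% were above 0, and 407 were higher and 230 lower at an unadjusted p below 0.05. Among those within the coding span 75 rose and 48 fell of 3586. The 3′-most bins of genes, which are no members, were called at rates of 1.53% higher and 2.13% lower, and no test of these rates against those of long bins was made. Of the called bins, 48 of the higher and 38 of the lower moved by more than 2-fold in the ratio.

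These counts depended on single libraries. Without DNMT1i replicate 2, which had the smallest share of counts in 3′-most bins of its group, 533 long bins rose and 153 fell, and 478 of those that rose were untranslated. The balance of the bins 3′ of the coding bases then turned, with 254 that rose and 67 that fell. Without DMSO replicate 1 the counts were 48 and 58, without DMSO replicate 3 they were 59 and 73, without DNMT1i replicate 1 they were 57 and 79, and without DNMT1i replicate 3 they were 43 and 66.

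**Figure D2:**
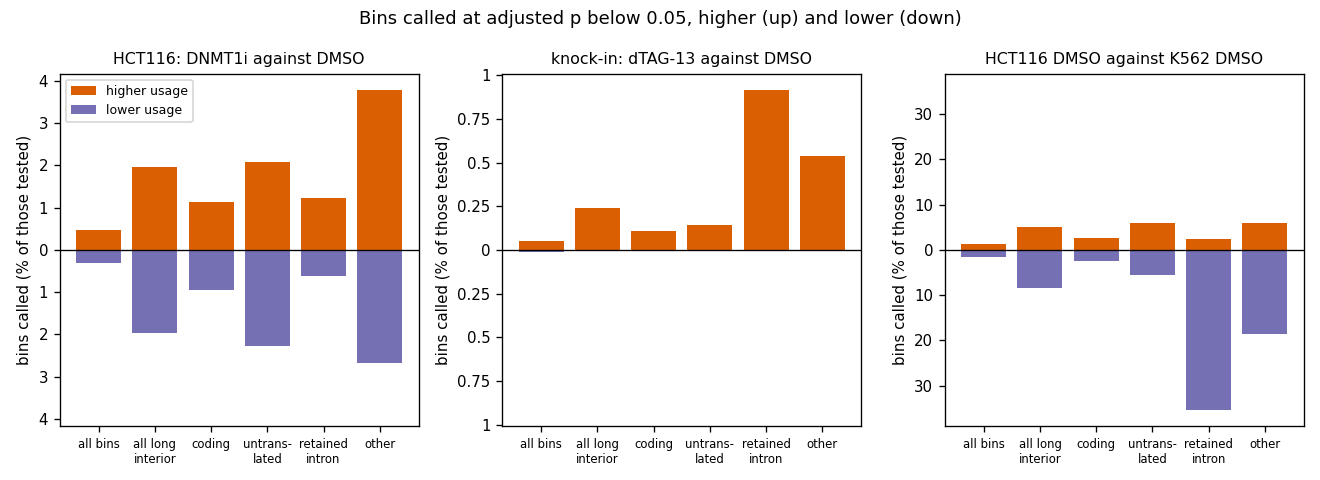
Bins called at adjusted p below 0.05 as a percentage of those tested (y axis; higher usage up, lower usage down) for all bins, all long interior bins and their 4 classes (x axis) in 3 comparisons. Long bins were called more often than all bins in HCT116 cells, with 1.97% higher and 1.96% lower, as were 3′-most bins (not drawn) with 1.53% and 2.13%. Rates were not matched for counts per bin. Of the retained introns tested between the DMSO groups of the lines, 35.4% were called lower in HCT116 and 2.31% higher.

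The long bins that rose most in HCT116 cells had few counts under DMSO. RUSC1, an adapter protein, showed it most plainly. Its bin 3 had 0 counts in all 3 DMSO libraries and 67, 69 and 64 after DNMT1i, where it held 5.60%, 4.20% and 5.54% of the gene. Against a floor of 3 counts per library the share was at least 17.8-fold higher (adjusted p = 3.87e-07). The neighbouring bin 2 went from 0 to 21 counts over the 3 libraries, while the gene as a whole stood at 26.4 ± 2.46 and 34.1 ± 3.45 CPM (counts scaled to a common library size, mean ± SD, n = 3). The bin overlaps a gene on the other strand, so the strand of these reads is open.

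PCDH7, a protocadherin of cell adhesion, gained use of bin 10 (chr4:30730753-30732973), a stretch inside intron 1 of its canonical transcript that is untranslated in another protein-coding transcript. The bin held 0.0838%, 0.116% and 0.169% of the gene under DMSO and 4.23%, 4.14% and 4.38% under DNMT1i. The groups were far apart and the log2 ratio was 5.14 ± 0.22 (SE; adjusted p = 6.28e-11). The bin next to it on the 5′ side also rose (5.81, adjusted p = 2.05e-05), and the gene's level was 192 ± 12.3 against 173 ± 10.5 CPM. CRNDE, a long noncoding RNA named for its rise in colorectal neoplasia, had 1, 3 and 0 counts in bin 16 under DMSO and 42, 20 and 32 under DNMT1i. Its log2 ratio was 3.56 ± 0.55 (adjusted p = 0.00239), and the bin on the 5′ side went from 0 to 105 counts.

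The divergent noncoding RNA MAP4K3-DT held 0.450%, 0.379% and 1.03% of its counts in bin 30 under DMSO and 11.6%, 11.7% and 13.6% under DNMT1i (log2 ratio 4.43 ± 0.42, adjusted p = 8.5e-06), from 1, 1 and 2 counts in the controls. ADPRHL1, a relative of the ADP-ribosyl hydrolases, had a long last exon of 8610 bases that rose from 0.749%, 1.41% and 3.11% to 15.3%, 20.5% and 25.8% (3.80 ± 0.36, adjusted p = 1.07e-05), at gene levels of 10.5 ± 0.911 and 5.03 ± 0.786 CPM. The groups did not overlap in either gene. ESPN, which encodes the actin-bundling protein espin, stood at 43.2 ± 3.01 and 25.8 ± 2.96 CPM, and its coding bin 37 rose from 0.663% ± 0.137 to 3.72% ± 0.134 of the gene (2.51 ± 0.24, adjusted p = 1.07e-05). SPG7, a mitochondrial protease, rose by 2.26 ± 0.30 in bin 42 (adjusted p = 0.00043). The Mediator subunit MED9 rose by 2.73 ± 0.53 in bin 9 (adjusted p = 0.0163), from 0, 4 and 2 counts to 13, 14 and 17.

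Among the long bins that fell were 3′ untranslated stretches of long last exons. NOPCHAP1, which helps to assemble small nucleolar ribonucleoproteins, has a bin 11 of 21599 bases (chr12:104996027-105017625) that held 13%, 15.2% and 17.5% of the gene under DMSO and 4.64%, 4.02% and 5.01% under DNMT1i. Every treated library was below every control, and the log2 ratio was −1.91 ± 0.17 (adjusted p = 5.6e-06). MRPL42, a protein of the mitochondrial ribosome, fell in bin 26 from 9.21%, 7.74% and 9.30% to 3.36%, 3.58% and 3.15% (−1.46 ± 0.11, adjusted p = 8.15e-07), and its next bin on the 3′ side fell with it (−1.25, adjusted p = 2.93e-05). The last exon of SNRPD1, a core protein of the spliceosome's ribonucleoproteins, fell from 1.37% ± 0.184 to 0.498% ± 0.108 (−1.45 ± 0.20, adjusted p = 0.000595). In ZNF226, a zinc-finger protein, the last coding exon fell from 17.3%, 10.7% and 12.3% to 4.42%, 5.49% and 6.68% (−1.39 ± 0.22, adjusted p = 0.00284).

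Other falls lay inside introns of the canonical transcript or outside it. WDR33, a subunit of the complex that recognises polyadenylation signals, fell in bin 17 from 1.26% ± 0.299 to 0.365% ± 0.0871 of the gene (−1.76 ± 0.28, adjusted p = 0.00311). MIR100HG, the host transcript of a microRNA cluster, fell in bin 120 (−2.10 ± 0.30, adjusted p = 0.00116), and its neighbouring bin on the 5′ side fell as well (−2.20, adjusted p = 0.000192). HECTD2, a ubiquitin ligase, stood at 6.84 ± 0.169 CPM under DMSO and 20.3 ± 2.6 CPM under DNMT1i. Its bin 9 had 15, 19 and 15 counts under DMSO and 14, 10 and 12 under DNMT1i, and its share fell from 7.12% ± 0.374 to 1.72% ± 0.235 (−2.12 ± 0.29, adjusted p = 0.000591). HSPA12A, of the HSP70 family, fell in bin 37 from 5.76% ± 0.185 to 2.14% ± 0.208 (−1.48 ± 0.19, adjusted p = 0.000272), and its level was 37.9 ± 1.17 against 49.7 ± 2.35 CPM.

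**Figure D3:**
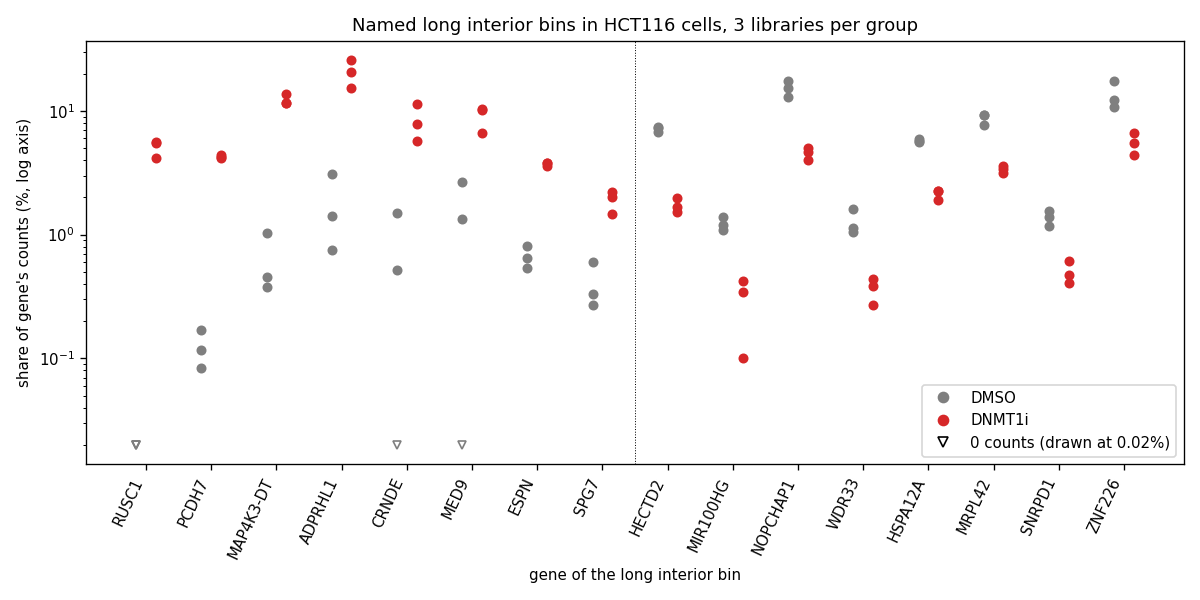
Share of the gene's bin counts (%, log axis) of the 8 named long bins that rose and the 8 that fell in HCT116 cells (x axis, left and right of the dotted line), with 3 DMSO and 3 DNMT1i libraries each. Points of the groups are separate for every gene shown, and open triangles mark libraries with 0 counts, drawn at 0.02%.

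Among the lists of related genes, speckle and splicing factors had the most called bins in HCT116 cells. Of 59 tested, 2 rose (3.39%) and 5 fell (8.47%), where 1.97% and 1.96% of all long bins did, with a median log2 ratio of −0.02 against 0.05 over the members tested. Those that fell included 3′ untranslated bins of the RNA helicase DDX5 (−1.0 ± 0.11, adjusted p = 8.77e-05), of the RNA-binding protein HNRNPDL (−0.85 ± 0.12, adjusted p = 0.000863) and of PPIG, a cyclophilin found in speckles (−0.91 ± 0.15, adjusted p = 0.0032). NEAT1, the noncoding RNA that builds paraspeckles, lost share in its 17944-base bin 25, from 19.3% ± 3.52 to 11.9% ± 0.758 (−0.84 ± 0.15, adjusted p = 0.00609). Of 81 bins of chromatin regulators 2 rose (2.47%) and none fell, namely in the methyltransferase NSD3 (1.23 ± 0.21, adjusted p = 0.00563) and in the last exon of TET2, an enzyme that oxidises methylcytosine (0.66 ± 0.12, adjusted p = 0.0118). The share of TET2 was 28.0% ± 1.98 under DMSO and 38.2% ± 2.53 under DNMT1i. Of 20 bins of genes with detained introns 1 rose, a 3′ untranslated bin of the kinase MKNK2 (0.51 ± 0.11, adjusted p = 0.0242), while DESeq2 called 0. Of 18 bins of long noncoding RNAs 1 rose, in FTX (0.84 ± 0.19, adjusted p = 0.0487). For these RNAs DESeq2 called 0 higher and 1 lower, and the median log2 ratio was −0.28. At an unadjusted p below 0.05, edgeR gave 2 higher and 5 lower. Of 38 bins of genome maintenance and mitosis genes, edgeR called 0 and DESeq2 called 0, with 5 higher and 5 lower at an unadjusted p below 0.05.

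In K562 cells very few long bins were called after DNMT1i. Of 5476 tested, 2 rose and 1 fell, against 0.0219% of all bins called higher and 0.0101% called lower. At an unadjusted p below 0.05, 92 long bins were higher and 329 lower. Of the long bins tested 40.2% had a log2 ratio above 0, against 52.0% of all bins, so few calls do not show that the others were unchanged. Untranslated long bins had a median log2 ratio of −0.02 with 43.9% above 0, which without DMSO replicate 3 became −0.11 with 24.5% above 0. SSU72, a phosphatase of the RNA polymerase II tail, held 2.37%, 2.21% and 2.97% of its counts in bin 7 (chr1:1560848-1564772) under DMSO and 4.92%, 4.52% and 5.19% under DNMT1i. The groups did not overlap and the log2 ratio was 1.0 ± 0.13 (adjusted p = 0.0256). In TFDP2, a partner of the E2F factors, bin 2 of the last exon (chr3:141944435-141951501) fell from 4.96%, 5.12% and 5.15% to 2.61%, 2.79% and 2.94% (−0.90 ± 0.10, adjusted p = 0.00851). TMCO3, a transmembrane protein, rose in bin 13 (chr13:113503589-113506062), inside intron 6 of its canonical transcript, from 3.76%, 4.04% and 2.53% to 8.41%, 6.93% and 8.27% (1.23 ± 0.17, adjusted p = 0.0442). Without DMSO replicate 3 the counts were 6 and 14, and the log2 ratios were 1.13 for SSU72, −0.89 for TFDP2 and 1.08 for TMCO3 (adjusted p = 4.64e-06, 1.08e-05 and 0.00119), while leaving out any other K562 library left none of either direction.

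The SSU72 and TFDP2 bins moved the same way in HCT116 cells, whose libraries the K562 test did not use. SSU72 went from 1.73%, 1.55% and 1.21% to 4.0%, 3.29% and 3.46% there (1.27 ± 0.15, adjusted p = 0.000147). TFDP2 fell by 0.97 on the log2 scale (SE 0.12, adjusted p = 0.000188). The difference of the responses between the lines was 0.27 ± 0.20 for SSU72 and −0.07 ± 0.16 for TFDP2, and neither passed the test (adjusted p = 1 for both). TMCO3 had a log2 ratio of 0.21 ± 0.27 in HCT116 cells (adjusted p = 0.846), from lower shares of 0.774% ± 0.144 under DMSO and 0.919% ± 0.317 under DNMT1i. Its difference of responses was −1.02 ± 0.34 (adjusted p = 0.82). Of the 117 bins that rose in HCT116 cells, 93 were tested in K562 cells, where 63 (67.7%) had a log2 ratio above 0 and 30 below. Of the 116 that fell, 96 were tested in K562 cells, where 75 were below 0 and 21 (21.9%) above. Of all 5476 long bins tested in K562 cells, 40.2% were above 0.

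Long retained introns stood at lower shares in K562 cells given DNMT1i, but none passed the test. Over the 556 tested, the median log2 ratio was −0.32 and 19.6% were above 0, whereas the median of all bins tested was 0.01. edgeR and DESeq2 each called 0 in either direction, with 8 higher and 91 lower at an unadjusted p below 0.05. Without DMSO replicate 3 the median was −0.34 over 658 bins, 19.8% were above 0, and 1 rose and 1 fell. Their share of the library was 0.0904%, 0.0958% and 0.0814% under DMSO and 0.0735%, 0.0592% and 0.0897% under DNMT1i, so the groups overlapped (exact p = 0.2). The lowest value was that of DNMT1i replicate 2 and the highest of the treated group was that of replicate 3. Examples with values in this direction were bin 64 of the kinase anchor AKAP9, at 0.692% ± 0.124 and 0.357% ± 0.12 of the gene (−0.94 ± 0.25, adjusted p = 1), and bin 37 of the chromatin reader PHF20L1, at 0.740% ± 0.256 and 0.446% ± 0.112 (−0.78 ± 0.33, adjusted p = 1). In none of the 5 gene lists was a long bin called in K562 cells by edgeR or DESeq2. At an unadjusted p below 0.05 genome maintenance genes had 1 higher and 1 lower, the chromatin regulators 2 and 2, the speckle and splicing factors 0 and 1, genes with detained introns 1 and 1, and long noncoding RNAs 0 and 3.

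To ask whether acute loss of speckle scaffolds changes the use of long bins, knock-in K562 cells given dTAG-13 were compared with DMSO. Of 5461 long bins tested 13 rose and 0 fell by edgeR, while 0.0492% of all bins were called higher and 0.0124% lower. DESeq2 called 14 and 0, and 508 were lower at an unadjusted p below 0.05. Same-numbered libraries correlated in their deviations in this experiment, but replicate 2 correlated best with another number and no label states a pairing. With the replicate number as a block 74 rose and 349 fell, against 0.828% and 1.2% of all bins. The 13 bins lay in 12 genes. By class, 4 of 436 retained introns, 5 of 3539 untranslated, 3 of 558 noncoding or processed and 1 of 928 coding bins rose. With the block, 22 retained introns rose and 5 fell, while 28 untranslated bins rose and 325 fell. Leaving out DMSO replicate 1 left 1 bin that rose, DMSO replicate 2 left 6, DMSO replicate 3 left 7, and dTAG-13 replicates 1 and 2 left 4 each, with none lower in any of these.

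Tested untranslated long bins had a median log2 ratio of −0.13, with 25.0% above 0, and 3′-most bins, which are no members, of −0.16. With the block, 407 of 4776 such 3′-most bins fell and 30 rose. Coding long bins had a median of 0.04 and retained introns of 0.08. In the library totals, 3′-most bins took 4.37%, 4.89% and 3.97% under DMSO and 4.27%, 4.18% and 3.77% after dTAG-13, and the groups overlapped. How far the lower values of untranslated members reflect this loss at gene ends was not tested.

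Of the 13 long bins called after dTAG-13, those with the largest log2 ratios were whole introns. As a class, 4 of 436 retained introns tested were called, with a median log2 ratio of 0.08. Retained introns took 0.0544%, 0.0615% and 0.0544% of library counts under DMSO and 0.0638%, 0.0592% and 0.0570% after dTAG-13. The groups overlapped (exact permutation p = 0.3). PPP1R37, a regulatory subunit of protein phosphatase 1, gained share in introns 7 and 8, whose ends are printed above. Intron 8 (bin 24) held 1.5%, 2.30% and 1.43% of the gene's counts under DMSO and 13.1%, 17.6% and 12.5% after dTAG-13, from 4, 6 and 5 counts to 62, 93 and 112. All treated libraries were far above all controls, with a log2 ratio of 3.22 ± 0.31 (adjusted p = 0.00344). Intron 7 (bin 22) went from 1.5%, 2.30% and 0.571% to 6.75%, 6.82% and 9.80% (2.62 ± 0.39, adjusted p = 0.0342). The exon bin between them had a log2 ratio of −0.33 (adjusted p = 0.868) and the one after intron 8 of −0.75 (adjusted p = 0.796). The gene's level was 8.26 ± 1.02 CPM under DMSO and 19.3 ± 6.3 after dTAG-13. Counts of intron 7 were 4, 6 and 2 under DMSO and 32, 36 and 88 after dTAG-13.

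POLG, the catalytic subunit of the mitochondrial DNA polymerase, gained intron 6 (bin 74, printed above), which rose from 0.315%, 0.537% and 0.375% to 3.04%, 2.81% and 2.81% of the gene. Counts went from 5, 8 and 6 to 37, 36 and 49, and the log2 ratio was 2.84 ± 0.25 (adjusted p = 0.00244). The exon bins at either side had log2 ratios of −0.12 and −0.04 (adjusted p = 0.945 and 0.991). The level of the gene was 35.1 ± 1.11 and 29.3 ± 3.6 CPM. P4HB, a protein disulfide isomerase, gained its intron 10 (bin 35) from a very low base of 8, 5 and 16 counts to 50, 46 and 66 (2.28 ± 0.26, adjusted p = 0.00636). A retained intron bin of the Mediator subunit MED15 rose from 0.202%, 0.243% and 0.269% to 0.645%, 0.746% and 0.565% (1.43 ± 0.20, adjusted p = 0.023).

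The largest shift in share was in INPP5E, a phosphoinositide phosphatase of the primary cilium. Its bin 15 (chr9:136435513-136438607), a stretch inside intron 1, held 33.3%, 34.6% and 26.1% of the gene under DMSO and 66.7%, 60.0% and 60.3% after dTAG-13. The bin's counts were 59, 55 and 53 in the controls and 122, 111 and 141 in the treated libraries, of 177, 159 and 203 and of 183, 185 and 234 counts in the gene. Every treated library was above every control (1.86 ± 0.20, adjusted p = 0.00472), at gene levels of 8.20 ± 0.702 and 9.40 ± 0.651 CPM.

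**Figure D4:**
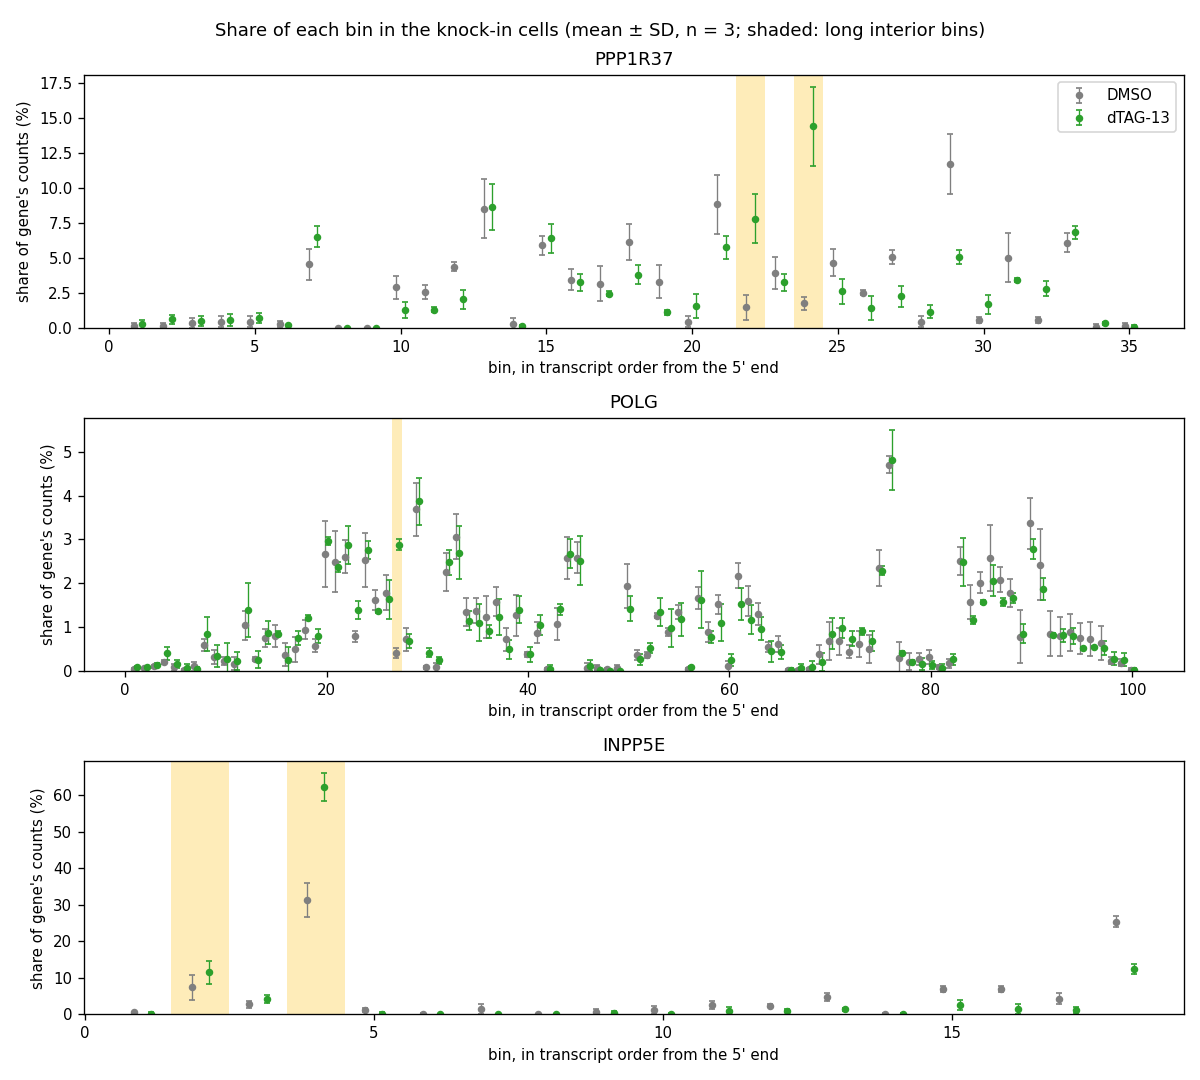
Share of the gene's bin counts (%, y axis) in each bin of PPP1R37, POLG and INPP5E, in order from the 5′ end (x axis), in knock-in cells under DMSO and dTAG-13 (mean ± SD, n = 3), with long interior bins shaded. The intron bins of PPP1R37 and POLG and the first-intron bin of INPP5E rose, from a mean of 31.3% to 62.3% in INPP5E, where the remaining bins together held correspondingly less.

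The other bins that rose after dTAG-13 changed by smaller ratios. CDCA3, a gene of mitotic entry, went from 1.55%, 1.28% and 1.72% to 3.89%, 4.27% and 3.89% (1.44 ± 0.18, adjusted p = 0.0151), and TRIM11, a ubiquitin ligase, from 16.9%, 15.3% and 14.5% to 30.3%, 26.1% and 26.4% (1.04 ± 0.14, adjusted p = 0.0202). Both overlap a gene on the other strand, so their strand is open. Stretches inside canonical introns rose in PCNX4 (1.08 ± 0.17, adjusted p = 0.0495) and in the endoplasmic reticulum stress sensor ATF6 (0.94 ± 0.13, adjusted p = 0.0227). GSTK1, a glutathione transferase, rose by 0.83 ± 0.13 (adjusted p = 0.0428) and the ribosomal protein gene RPL28 by 0.73 ± 0.11 (adjusted p = 0.0404). The only coding bin called was exon 3 of RTN4, which encodes the membrane-shaping protein Nogo, at 1.38% ± 0.0309 under DMSO and 2.22% ± 0.121 after dTAG-13 (0.70 ± 0.10, adjusted p = 0.0326). All 13 had adjusted p below 0.05 with the block too. Their median content of G and C was 53.8%, against 41.9% over the members tested, which describes the bins called and was not tested.

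Among the lists, edgeR called no long bin after dTAG-13 without the block, nor did DESeq2. Speckle and splicing factors had 5 higher and 10 lower of 61 at an unadjusted p below 0.05, and with the block 4 rose and 9 fell. A retained intron bin of NKTR, a cyclophilin with a long serine and arginine rich tail, stood at 1.03% ± 0.228 under DMSO and 2.04% ± 0.277 after dTAG-13 (1.0 ± 0.19, adjusted p = 0.151, and 0.001 with the block). NEAT1 bin 25 stood at 14.1% ± 1.2 and 20.5% ± 2.96 (0.64 ± 0.14, adjusted p = 0.249, and 7e-06 with the block), and PRPF4B, a kinase of the spliceosome, at 1.47% ± 0.168 and 0.844% ± 0.192 (−0.82 ± 0.17, adjusted p = 0.193, and 7.56e-05 with the block). Chromatin regulators had 0 higher and 9 lower of 79 at an unadjusted p below 0.05, and 7 fell with the block, among them last-exon bins of ARID2 (−0.44 ± 0.14, adjusted p = 0.675, and 0.00639 with the block) and BPTF (−0.47 ± 0.16, adjusted p = 0.727, and 0.0132 with the block). Genes with detained introns had 3 higher and 2 lower of 20, genome maintenance genes 0 and 4 of 38, and long noncoding RNAs 1 and 0 of 16 at an unadjusted p below 0.05.

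The widest differences were between the lines. With HCT116 DMSO set against K562 DMSO libraries, 312 of 6061 long bins tested were higher in HCT116 and 515 lower, while 1.41% of all bins were called higher and 1.48% lower. Retained introns stood out, with 11 higher and 169 lower of 477 and a median log2 ratio of −0.88. Noncoding and processed bins gave 31 and 97 of 521, untranslated bins 241 and 222 of 3979, and coding bins 29 and 27 of 1084. Without K562 DMSO replicate 3 the counts were 454 and 1240 of 6372 for all members, 322 and 837 for untranslated bins, and 17 and 222 of 552 for retained introns. Cell line and everything else that differs between these cultures cannot be told apart.

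The 169 retained intron bins that were lower in HCT116 cells lay in 147 genes. Their median share of the gene was 1.04% in K562 DMSO and 0.260% in HCT116 DMSO cells. In the DNMT1i libraries of both lines, which the call did not use, 167 of the 169 were lower in HCT116 on average and 126 (74.6%) did so with no overlap between the 3 and 3 libraries. Of all retained introns tested 37.8% did so with no overlap, and of all long bins tested 17.7%. On average, 331 of 473 retained introns and 2901 of 5756 long bins were lower in HCT116 there. Medians of the 169 there were 0.839% and 0.265%. Against knock-in K562 cells under DMSO, 126 of the 169 were lower in HCT116 DMSO cells on average, 71 (42.0%) with no overlap. Another 17 of the 169 were higher there with no overlap. Of all retained introns tested 26.6% were lower with no overlap, and of all long bins tested 23.2%. On average, 275 of 473 retained introns and 3323 of 5636 long bins were lower. This comparison uses again the HCT116 DMSO libraries in which the 169 were called lower, so it is not a separate check of them. The median in the knock-in cells was 0.399%. Over all retained introns tested, the median share was 0.340% in knock-in DMSO, 0.336% in HCT116 DMSO and 0.698% in wild-type K562 DMSO libraries. Of these bins, 126 were lower in HCT116 than in knock-in DMSO cells and 78 higher with no overlap. Retained introns took 0.0568% ± 0.00415 of counts in knock-in DMSO libraries. This was nearer to 0.0441% ± 0.00465 in HCT116 than to 0.0892% ± 0.00726 in wild-type K562 DMSO libraries. The median content of G and C was 41.5% in the 169 bins and 41.1% in the 477 tested.

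**Figure D5:**
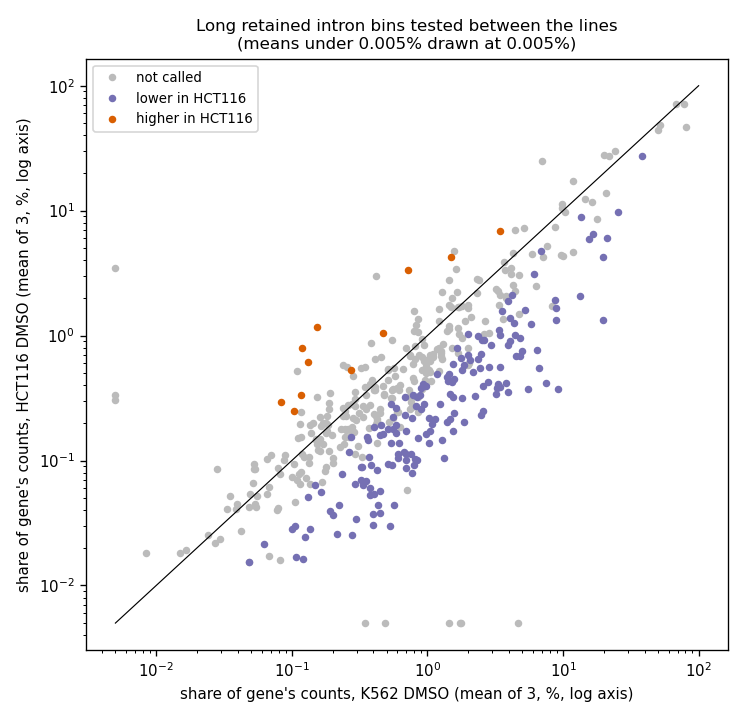
Mean share of the gene's bin counts of each long retained intron bin tested between the lines, in K562 DMSO (x axis) and HCT116 DMSO cells (y axis), both in % on log axes, with the line of equal shares. The 169 bins called lower in HCT116 lie below the line and the 11 called higher lie above it, and shares under 0.005% are drawn at 0.005%.

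Of the named retained introns the largest drop was in MTBP, a partner of the replication factor TICRR, where bin 19, inside intron 11, held 8.87%, 9.58% and 9.23% of the gene in K562 and 0.140%, 0.257% and 0.724% in HCT116 cells (−4.72 ± 0.34, adjusted p = 1.31e-06). In HNRNPU, a scaffold protein of nuclear RNA, the retained intron bin 17 stood at 0.298% ± 0.0986 and 0.0338% ± 0.00894 (−3.13 ± 0.29, adjusted p = 1.53e-05). AKAP9 bin 64 stood at 0.692% ± 0.124 and 0.113% ± 0.0466 (−2.55 ± 0.34, adjusted p = 0.000449). The whole intron 39 of ATR, the kinase of stalled replication forks, stood at 0.540% ± 0.15 and 0.137% ± 0.0487 (−1.91 ± 0.41, adjusted p = 0.0186). Another retained intron bin of ATR, bin 91, averaged 0.408% in K562 and 0.645% in HCT116 cells and was not called. The knock-in DMSO libraries averaged 6.54% ± 1.78 for MTBP, near wild-type K562. They averaged 0.0585% ± 0.0155 for HNRNPU, 0.166% ± 0.0753 for AKAP9 and 0.128% ± 0.0493 for intron 39 of ATR, nearer to HCT116.

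Untranslated bins made up 241 of the 312 bins higher in HCT116 cells. SMARCE1, a subunit of the BAF chromatin remodeller, held 0.599%, 0.376% and 0.234% of its counts in bin 2 of its last exon in K562 and 21.6%, 18.9% and 22.2% in HCT116 cells (5.86 ± 0.28, adjusted p = 2.42e-08). PML, which builds nuclear bodies, went from 0.667% ± 0.211 to 11.5% ± 1.16 in its last exon (4.29 ± 0.22, adjusted p = 4.56e-08). The erythrocyte beta-spectrin gene SPTB went from 0.308% ± 0.107 to 10.3% ± 1.3 (5.16 ± 0.29, adjusted p = 1.23e-07), at gene levels of 46.6 ± 7.23 CPM in K562 and 11.1 ± 0.926 in HCT116 cells. ZMIZ2, a transcriptional coactivator, was higher by 3.45 ± 0.36 (adjusted p = 4.86e-05) and the ciliary gene B9D1 by 3.43 ± 0.42 (adjusted p = 0.000198). SPTB and B9D1 overlap a gene on the other strand.

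Where K562 cells had only 1 to 3 counts in a bin the ratio of pooled shares is given with its counting interval. The coding bin 62 of PDE4DIP, a centrosome and Golgi protein, had 2 counts in K562 and 195 in HCT116 DMSO libraries, a ratio of 669 (95% interval 183 to 5566). This gene has close copies, and its counts are less certain. The scaffold protein DNMBP had 3 and 389 counts in coding bin 17, which overlaps a gene on the other strand (ratio 19.3, 6.56 to 94.1), and the ciliary gene ARMC9 had 1 and 67 in bin 94 (ratio 15.4, 2.67 to 616). Intervals cover counting error only.

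The bins lower in HCT116 cells included a long coding exon. In MACF1, a crosslinker of microtubules and actin, bin 78 of exon 37 (3472 bases, all coding) had 453, 447 and 315 counts in K562 and 1, 3 and 3 in HCT116 cells, at gene levels of 414 ± 9.05 and 327 ± 12.5 CPM. Its share fell from 3.01% ± 0.357 to 0.0216% ± 0.0103 (−7.07 ± 0.26, adjusted p = 2.65e-09), and the bin that touches it on the 5′ side was lower too (−6.12, adjusted p = 5.86e-08). The RNA-binding protein QKI was lower in the untranslated bin 35 inside intron 7, from 5.05% ± 1.3 to 0.257% ± 0.0531 (−4.30 ± 0.33, adjusted p = 2.24e-06), and the linker-histone relative HP1BP3 a stretch in intron 4, from 3.83% ± 0.225 to 0.0782% ± 0.0508 (−5.66 ± 0.25, adjusted p = 1.09e-08). LETM2 (−5.25 ± 0.51, adjusted p = 2.21e-05) and NUTM2A-AS1 (−4.36 ± 0.24, adjusted p = 9.92e-08) were lower as well. In KRT8, a keratin of epithelia, bin 33 was lower by share (−5.05 ± 0.20, adjusted p = 3.78e-09) while the gene as a whole was at a higher level, 1348 ± 62 against 158 ± 30.6 CPM, and the bin itself had 95, 75 and 72 counts in K562 and 16, 24 and 23 in HCT116 cells.

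Of 84 tested bins of chromatin regulators, 2 were higher in HCT116 cells and 8 lower, with a median log2 ratio of −0.08 against −0.10 over the members tested. The last exon of the de novo methyltransferase DNMT3A was higher, at 3.58% ± 0.942 in K562 and 20.3% ± 1.35 in HCT116 cells (2.81 ± 0.21, adjusted p = 2.2e-06), and bin 28 of NSD3 lower, at 2.88% ± 0.728 and 1.06% ± 0.21 (−1.48 ± 0.21, adjusted p = 0.000884). Of 63 bins of speckle and splicing factors 3 were higher (4.76%) and 14 lower (22.2%), where 5.15% and 8.50% of all long bins were, with a median of −0.15. DDX5 bin 5 was higher, at 0.185% ± 0.0452 and 0.996% ± 0.00381 (2.42 ± 0.16, adjusted p = 7.25e-07), the bin that fell in HCT116 cells with DNMT1i, to 0.502% ± 0.0643. That comparison shares the HCT116 DMSO libraries with this one. Of 21 bins of genes with detained introns 1 was higher and 7 lower, with LENG8 at −1.03 ± 0.16 (adjusted p = 0.0019). Of 15 bins of long noncoding RNAs 3 were higher and 3 lower, with SNHG5 at 2.28 ± 0.27 (adjusted p = 0.000158) and TUG1 at −1.68 ± 0.20 (adjusted p = 0.000132). Of 39 bins of genome maintenance genes 1 was higher, in RIF1 (1.15 ± 0.20, adjusted p = 0.00402), and 1 lower, in ATR.

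The long coding exons best known for their length did not pass the test in any comparison. BRCA1 bin 31 (chr17:43091852-43093012), in the exon that codes for much of this DNA repair protein, held between 8.74% ± 0.421 and 9.41% ± 0.228 of the gene over the 6 groups. MKI67 bin 6, 6295 bases of the proliferation antigen's repeat exon, held between 61.0% ± 1.07 and 64.3% ± 3.17. SETD2 bin 39, in the long exon 3 of this histone methyltransferase, held between 23.0% ± 0.827 and 25.4% ± 1.27. After DNMT1i in HCT116 cells their log2 ratios were 0.07 ± 0.11, 0.00 ± 0.08 and 0.19 ± 0.09, with adjusted p = 0.873, 0.998 and 0.454.

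The genes of both degron-tagged proteins have such exons too. SON bins 9, 10 and 11 held 11.8% ± 0.529, 8.47% ± 0.211 and 30.7% ± 0.266 of the gene in knock-in cells under DMSO and 11.8% ± 0.384, 8.83% ± 0.349 and 31.2% ± 0.28 after dTAG-13, with log2 ratios of 0.00 ± 0.08, 0.07 ± 0.08 and 0.03 ± 0.08. SRRM2 bins 47 and 53 had ratios of 0.05 ± 0.08 and 0.02 ± 0.08. SON bin 14, an untranslated end inside intron 4, had −0.28 ± 0.11 (adjusted p = 0.788).

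In the fit of the 12 wild-type libraries, which share controls with the tests above, the DNMT1i response differed between the lines in 12 long bins with a larger log2 ratio in HCT116 and 4 with a larger one in K562, of 6841 tested, against 0.0213% and 0.0208% of all bins. Without K562 DMSO replicate 3 the counts were 35 and 15, and without any other library but HCT116 DNMT1i replicate 2 they were 3 to 5 and 3 to 4. No list had a called bin in this fit by edgeR or DESeq2. Of 85 bins of chromatin regulators 9 were higher and 5 lower at an unadjusted p below 0.05, of 64 of speckle and splicing factors 2 and 4, of 21 of detained intron genes 4 and 0, and of 22 of long noncoding RNAs 0 and 2.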

How the data were processed

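Poly(A) RNA of 18 libraries was sequenced. The paper gives paired reads of 50 bases for the speckle degron libraries and states no read length for the wild-type RNA libraries. The authors removed repeat molecules with UMI-tools 1.1.1, trimmed with cutadapt 2.7, aligned to hg38 with STAR 2.6.0 and counted reads over genes (HTSeq) and over exon bins (the counter of DEXSeq). The deposited bin and gene values are raw counts, and a read that overlaps several bins is counted in each. No source used here gives the strand setting of that step. The deposited comparison tables hold the authors' fold changes and p-values and 18 columns of per-sample values, and were not used.

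Members, gene lists and the rule for named bins were chosen with earlier results of these data known. Named bins were called, had a symbol, 100 bin counts of the gene in every library, 1% of the gene in a group and groups that did not overlap, with 1 bin per gene: the 8 largest positive and 8 largest negative log2 ratios, or the 8 smallest p-values for the difference of responses. Up to 4 bins of smallest p per list and the bins of BRCA1, MKI67, SETD2, SON and SRRM2 were added. The other bins called after dTAG-13 (PPP1R37 bin 22, P4HB, MED15, RPL28 and RTN4) were named after their values were seen, because all 13 are given. One named bin is not reported here. For each bin, counts of the bin and of the rest of its gene were fitted with library, bin and bin by group terms (edgeR 4.0.16 quasi-likelihood test, R 4.3.3), after filterByExpr on both, with Benjamini-Hochberg adjustment over every bin tested and a threshold of 0.05. The newer form of this fit failed in some comparisons, so its legacy form was used throughout, a choice made after calls of the newer form had been seen. DESeq2 1.42.0 and diffSpliceDGE were alternatives, as were no low count filter, a replicate block and leaving out each library. The fit was also run on simulated counts, and the outcome is not reported here. Classes came from GENCODE 44 on hg38, and sequences were read from hg38. Shares of a library were compared by exact permutation.

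Libraries of a group differed by more than counting error (chi-square per degree of freedom 2.11 to 31.4), so each was counted as 1 replicate. Same-numbered libraries correlated in their deviations from the group means over 10705 genes at 0.45, −0.44 and −0.17 in K562 and at 0.25, −0.33 and −0.35 in HCT116 cells, so the numbers did not pair these. They correlated at 0.17, 0.42 and 0.73 in the knock-in cells and at 0.14, 0.32 and 0.44 between the DMSO groups of the lines. On these values the numbers were taken to pair those. However, replicate 2 in the knock-in cells and replicate 1 between the lines correlated best with another number. No label says that a number marks a shared culture or day, so the block rests on a pairing inferred from these data.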

Additional observations from a re-analysis of the deposited data

Results flagged for a closer look

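The DNMT1i response of 8 named long interior bins differed between HCT116 and K562 cells in the fit of the 12 wild-type libraries (edgeR quasi-likelihood test of the interaction, Benjamini-Hochberg adjustment). Values are the log2 ratio of HCT116 minus that of K562, and shares are of the gene's bin counts. BCL7C, a subunit of BAF chromatin remodellers, differed by 2.03 (adjusted p = 0.00102). Its bin 5 held 17.7%, 13.7% and 13.5% in K562 DMSO, 12.1%, 8.49% and 12% in K562 DNMT1i, 14.6%, 12.7% and 11.1% in HCT116 DMSO and 31.8%, 28.3% and 28.2% in HCT116 DNMT1i libraries, with no overlap between the groups of either line. The bin rose in HCT116 cells (adjusted p = 5.09e-06), and in K562 cells the log2 ratio was −0.53 ± 0.19 and did not pass the test (adjusted p = 1). MRPL42 bin 26 differed by −1.28 (adjusted p = 0.00355), with 3.81% ± 0.123 and 3.40% ± 0.438 in K562 cells beside the fall in HCT116 cells. NOPCHAP1 bin 11 differed by −1.89 (adjusted p = 0.00523), with 13.6% ± 2.64 and 13.3% ± 1.77 in K562 cells.

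EPB41L5 bin 43, in the last exon of this cortical adapter protein, differed by 1.55 (adjusted p = 0.0126). It stood at 12.6% ± 0.841 and 11.7% ± 0.743 in K562 and at 1.42% ± 0.46 and 3.75% ± 0.267 in HCT116 cells under DMSO and DNMT1i. ZNF451 bin 26 differed by 1.12 (adjusted p = 0.0216), at 2.22% ± 0.403 and 1.43% ± 0.0529 in K562 and 9.79% ± 0.695 and 13% ± 1.16 in HCT116 cells. CRNDE bin 16 differed by 3.92 (adjusted p = 0.0336), at 3.62% ± 1.09 and 2.65% ± 0.437 in K562 cells. TMOD1 bin 12, which overlaps a gene on the other strand, differed by 1.39 (adjusted p = 0.0396), at 27.5% ± 4.63 and 28.4% ± 3.04 in K562 and 28.7% ± 5.25 and 52.0% ± 1.93 in HCT116 cells. AIMP1 bin 15 differed by 1.28 (adjusted p = 0.0437), at 1.85% ± 0.363 and 1.52% ± 0.101 in K562 and 1.0% ± 0.114 and 1.94% ± 0.195 in HCT116 cells. With DESeq2 the differences of EPB41L5, CRNDE, TMOD1 and AIMP1 did not pass the threshold. Groups of 3 libraries are too small for a test of single outlying libraries.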

How the results depend on the processing

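Directions held in every alternative listed here for the named bins that were called, all 13 called after dTAG-13 among them, but the number of called bins moved. Without the low count filter, 8 long bins were called higher and 17 lower in K562, 270 and 181 in HCT116, 49 and 32 after dTAG-13, 938 lower between the lines, and 34 and 19 in the difference of responses. DESeq2 called 2 lower in K562, 45 and 57 in HCT116 and 6 higher in the difference of responses. With diffSpliceDGE, 4 were lower in K562 under TMM and under RLE scaling, 24 were higher and 3 lower after dTAG-13, and 2 were lower in the difference of responses. With the replicate block, none was called in K562, and 74 higher and 349 lower after dTAG-13. The block gave 134 and 116 in HCT116, 392 and 639 between the lines and 9 and 4 in the difference of responses, which share only numbers in the first and last case. Leaving out 1 library at a time gave 0 to 6 higher and 0 to 14 lower in K562, 43 to 533 and 58 to 153 in HCT116, 1 to 12 higher and 0 lower after dTAG-13, 237 to 454 and 388 to 1240 between the lines, and 3 to 35 and 3 to 15 in the difference of responses. The cause of these shifts was not tested, apart from the number of bins tested without the filter and of libraries in the leave-outs. Of the named called bins, 19 of 24 in HCT116 and 30 of 34 between the lines stayed called in every alternative, but 0 of 3 in K562, 1 of 13 after dTAG-13 and 2 of 8 in the difference of responses did. Without K562 DMSO replicate 3 alone, 3 of 3 in K562, 34 of 34 between the lines and 8 of 8 in the difference of responses stayed called. Log2 ratios moved by over 1.5 times in the ratio without HCT116 DMSO replicate 2 for CRNDE (4.75) and MED9 (3.65). They did so without HCT116 DMSO replicate 3 for ADPRHL1 (4.46) and MTBP (−5.54). Between the lines, ARMC9 moved from 3.53 to 5.39 without K562 DMSO replicate 3. DNMBP moved from 4.15 to 4.95 without K562 DMSO replicate 1. The CRNDE difference of responses moved from 3.92 to 5.11 without HCT116 DMSO replicate 2 and was then not called by edgeR (adjusted p = 0.0984). An alternative without joined genes gave no other value, since the table holds 0 of them.

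Depth limits low bins, whose shares rest on few counts, and floors and intervals cover counting error only. With 3 against 3 libraries an exact test cannot go below 0.1.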
